A study of Mus musculus with 12 samples.

Results

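The transcripts described here are those of 9 transient receptor potential (TRP) ion channels in mouse dorsal root ganglia (DRG), the clusters of sensory nerve cell bodies beside the spinal cord. The members are Trpv1, Trpv2, Trpa1, Trpm8, Trpm3, Trpm2, Trpm7, Trpc1 and Trpc5. Their rows were taken by gene name and not by their values, which found 9 rows of the 24490 genes in the expression table. The list of names was chosen with earlier results of these data known. PolyA RNA was sequenced from adult C57Bl/6 mice in 3 groups of 4 samples, and the values are fragments per kilobase of transcript, scaled to the mapped fragments of each sample (FPKM). Intact samples were whole ganglia of 1 mouse each. Unsorted samples were acutely dissociated ganglia of 2 mice each, and MACS-sorted samples were dissociated cells pooled from 8 mice each and passed over a magnetic column that held back cells bound by an antibody cocktail against non-neuronal cells. The labels give no transgene or treatment for any group, and the groups differed in how the tissue was handled.

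TRP channels are cation channels assembled from 4 subunits around a central pore, and many of them admit calcium. In sensory neurons several of them turn heat, cold or irritant chemicals into electrical signals. Trpv1 is the receptor for capsaicin and noxious heat, Trpa1 responds to mustard oil and other reactive irritants, and Trpm8 responds to menthol and cool temperatures. Others, such as Trpm7 and Trpc1, are expressed in many cell types of the body.

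RefSeq promoters were available for 8 of the 9 members (all but Trpa1). The promoters of 3 of them are shown. Trpv1 and Trpv2 were higher in MACS-sorted than in unsorted samples, and Trpm8 was lower in MACS-sorted than in intact samples. By the test described below, Trpm8 did not pass against unsorted samples, and Trpv1 did not pass between MACS-sorted and intact samples. Each sequence runs from 250 bases before the annotated start to 50 bases from it onwards, on the plus strand of GRCm38.p6 (mm10), at chr11:73233899-73234198 for Trpv1, chr11:62574236-62574535 for Trpv2 (the first of its 3 annotated starts) and chr1:88306485-88306784 for Trpm8. Capitals mark matches on either strand to 4 motifs, none of which overlapped another. The TATA box was searched for as TATAAA. The box named CCAAT was searched for by these letters. The Sp1 box was searched for as GGGCGG. The RUNX motif was searched for as TGTGGT.
Trpv1: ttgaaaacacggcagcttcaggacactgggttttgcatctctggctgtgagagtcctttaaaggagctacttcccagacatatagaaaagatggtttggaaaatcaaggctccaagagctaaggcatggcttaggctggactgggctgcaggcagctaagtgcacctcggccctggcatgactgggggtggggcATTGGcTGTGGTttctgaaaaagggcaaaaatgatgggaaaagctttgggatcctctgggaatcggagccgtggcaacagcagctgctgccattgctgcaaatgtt
Trpv2: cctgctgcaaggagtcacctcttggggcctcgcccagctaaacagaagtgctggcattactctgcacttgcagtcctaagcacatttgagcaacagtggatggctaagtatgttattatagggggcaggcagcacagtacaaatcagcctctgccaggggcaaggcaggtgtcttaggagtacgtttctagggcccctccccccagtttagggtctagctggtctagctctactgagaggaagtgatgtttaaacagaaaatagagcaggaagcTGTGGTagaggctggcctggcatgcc
Trpm8: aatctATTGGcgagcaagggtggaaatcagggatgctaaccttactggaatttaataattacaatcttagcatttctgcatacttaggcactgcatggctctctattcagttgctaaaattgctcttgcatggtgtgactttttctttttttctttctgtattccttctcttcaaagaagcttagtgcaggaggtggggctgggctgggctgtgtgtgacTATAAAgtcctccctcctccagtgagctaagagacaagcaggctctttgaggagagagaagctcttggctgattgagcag
Trpv1 and Trpv2 each held a RUNX motif, beginning at base 201 in Trpv1 and at base 275 in Trpv2. Trpv1 also held a CCAAT box at base 195. Trpm8 held a TATA box at base 221 and a CCAAT box at base 6, and no Sp1 box was found in any of the 3. Among all 32851 promoters of this length, 13.6% held the TATA box, 37.4% the CCAAT box, 35.7% the Sp1 box and 16.8% the RUNX motif. Their base composition also differed, with 51.7% G and C in Trpv1, 53.0% in Trpv2 and 44.3% in Trpm8, against a median of 52.7% over all promoters. Trpv1 held 4 CG pairs, Trpv2 held 2 and Trpm8 held 1. Among the other members, the promoter of Trpm7 was 63.7% G and C with 35 CG pairs, and that at the first annotated start of Trpm3 was 66.7% G and C with 21 CG pairs. A RUNX motif was also found at the second annotated start of Trpm3, beginning at base 85 on the opposite strand. A match is a description of the sequence and not a sign that a factor binds there. The deposited table starts Trpv1 at position 73238259, which is downstream of this promoter, and starts Trpv2 and Trpm8 within the stretches shown. In the GENCODE annotation Trpm8 begins at position 88277661, which is 29051 bases upstream of its deposited start. The stretch shown for Trpm8 therefore lies inside the GENCODE gene.

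The labels were compared with marker genes. Summed over 8 satellite glia markers, MACS-sorted samples held 89.3 to 192 FPKM and unsorted samples 2144 to 2699 FPKM, and the 11 markers of large-diameter neurons summed to 1136 to 1537 and 4034 to 4765 FPKM. The 11 markers of small-diameter nociceptors summed to 3249 to 4505 FPKM in MACS-sorted and 2763 to 2895 in unsorted samples, where 9 of the 11 were higher by the test described below and 1 was lower, with a median log2 difference of 0.79. The 8 pan-neuronal markers summed to 3815 to 4902 FPKM in MACS-sorted, 4223 to 4554 in unsorted and 3536 to 3769 in intact samples. Between MACS-sorted and unsorted samples 3 of them were higher and 2, Tubb3 and Snap25, were lower. The 7 Schwann cell markers summed to 518 to 1209 FPKM in MACS-sorted and 2027 to 3280 in unsorted samples. The 6 endothelial markers summed to 11.4 to 68.1 and 38.2 to 50.5 FPKM, and none of them passed. In the MACS-sorted group, haemoglobin genes took 0.681% of all FPKM in replicate 1, 0.865% in replicate 2, 5.14% in replicate 3 and 7.13% in replicate 4, and at most 0.259% in any other sample, so MACS-sorted replicates 3 and 4 stood apart. Intact replicate 1 also stood apart, with 2975 FPKM over 8 skeletal muscle markers against 17.2 to 70.4 in the other intact samples. The muscle list was written after the values were seen. Additional fits left out MACS-sorted replicates 3 and 4 together or each sample in turn, and their values stand beside the results that moved. Unsorted replicates 1 and 2 were unusually alike: from estimated fragments, their median squared difference was 1.63 times that of counting error over 1033 genes, against 2.22 to 14.9 times in the other pairs within a group. The labels give them as separate samples and they were counted so, but whether they are 1 library was not settled, and averaging them leaves 3 unsorted samples, for which an exact test against 4 allows no p below 0.0571. In bulk samples such as these, fewer cells of a type and less RNA per cell cannot be told apart.

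Trpv1 was the most abundant of the 9 transcripts in every group, followed by Trpv2 and Trpa1. Because FPKM is per length of transcript, the levels of different genes can be compared. Intact replicates 1 to 4 held 35.2, 38.7, 35.6 and 45.4 FPKM of Trpv1, unsorted replicates 31.6, 35.1, 35.0 and 42.5 FPKM, and MACS-sorted replicates 65.0, 52.6, 52.5 and 34.6 FPKM. The first 3 MACS-sorted replicates lay above every other sample, and the fourth lay among the unsorted samples. Trpv2, a relative of Trpv1 that is also found in large sensory neurons, was present at 20.4, 21.2, 23.4 and 24.0 FPKM in intact, 23.1, 22.7, 23.6 and 22.5 FPKM in unsorted, and 35.2, 39.2, 35.7 and 28.1 FPKM in MACS-sorted samples. All MACS-sorted samples lay above all others, with replicate 4 again the lowest. Trpa1 was present at 18.3, 21.5, 18.6 and 20.4 FPKM in intact, 14.5, 16.1, 14.3 and 15.8 FPKM in unsorted, and 29.8, 30.7, 27.4 and 19.4 FPKM in MACS-sorted samples. The unsorted samples were the lowest for this gene, and MACS-sorted replicate 4 lay within the intact range.

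Trpm8 was the fourth most abundant member in intact DRG and the seventh in MACS-sorted DRG. Its values were 9.61, 11.6, 12.4 and 11.8 FPKM in intact, 8.00, 7.46, 9.31 and 8.97 FPKM in unsorted, and 7.70, 8.14, 4.20 and 2.95 FPKM in MACS-sorted samples. Every intact sample lay above every dissociated sample, and the MACS-sorted samples fell into a pair close to the unsorted values and a lower pair, replicates 3 and 4. Trpm2, which opens on ADP-ribose under oxidative stress, was present at 2.79, 4.03, 4.67 and 4.71 FPKM in intact, 4.16, 4.30, 5.53 and 5.60 FPKM in unsorted, and 4.57, 2.76, 2.78 and 3.30 FPKM in MACS-sorted samples. Only MACS-sorted replicate 1 reached the unsorted range.

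Trpm3, a heat-sensitive channel opened by pregnenolone sulphate, had an intact range of 4.99 to 8.20 FPKM, an unsorted range of 7.36 to 7.86 FPKM and a MACS-sorted range of 4.32 to 8.92 FPKM. Trpm7, a channel fused to a kinase domain, ranged from 5.61 to 9.65, 7.57 to 8.80 and 5.77 to 8.14 FPKM in the same order. Trpc1, a subunit that pairs with other TRPC channels, ranged from 4.78 to 8.99, 8.12 to 10.7 and 6.01 to 9.21 FPKM. The groups overlapped for all of these genes, and the lowest intact value of each was that of replicate 1. Trpc5, a TRPC channel linked to cold sensing, was the least abundant, with an intact range of 0.211 to 0.348 FPKM, an unsorted range of 0.328 to 0.403 FPKM and a MACS-sorted range of 0.356 to 1.02 FPKM. From the estimated depth of 13600000 to 19300000 fragments per sample, these values stand for about 14 to 70 fragments, against 1616 to 2889 for Trpv1.

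**Figure D1:**
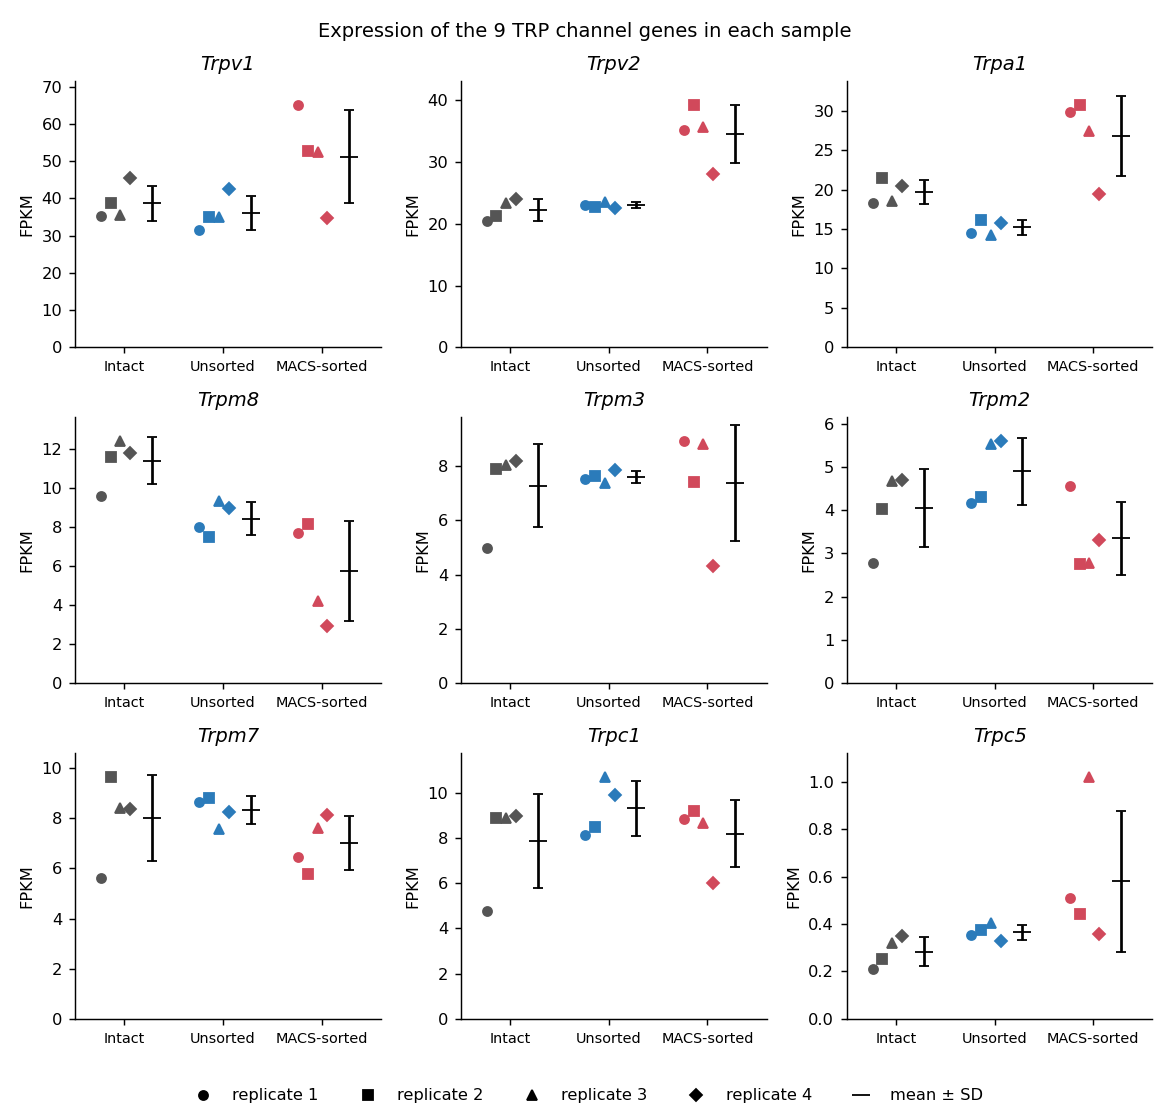
FPKM (y axis, linear, from 0) of each of the 9 TRP channel genes by group (x axis: Intact, Unsorted, MACS-sorted), with 1 symbol per sample, shaped by replicate number, and the mean ± SD (n = 4) as a bar. Trpv2 in MACS-sorted samples, at 28.1 to 39.2 FPKM, lies above all other samples, and Trpm8 declines from 9.61 to 12.4 FPKM in intact to 2.95 to 8.14 FPKM in MACS-sorted samples.

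Within a group, the order of levels was only partly resolved. In intact DRG, the ranges of Trpv2 and Trpa1 overlapped, as did those of each neighbouring pair from Trpm8 through Trpm7 and Trpc1 to Trpm3. In unsorted DRG, Trpv1, Trpv2 and Trpa1 were apart from each other and from the rest, while Trpc1, Trpm8, Trpm7 and Trpm3 overlapped from one to the next. In MACS-sorted DRG, Trpv1 overlapped Trpv2 and Trpv2 overlapped Trpa1, and the ranges of Trpc1, Trpm3, Trpm7, Trpm8 and Trpm2 overlapped from one to the next. Trpc5 was apart from all other members in every group. The spread between replicates was greatest in MACS-sorted samples for 7 of the 9 members, among them Trpm8 with a coefficient of variation of 44.7% against 10.1% in unsorted samples.

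The comparison of MACS-sorted with unsorted samples asked which transcripts differed after the sort. Of the 8 members whose mean over the 8 samples compared reached 1 FPKM, Trpv1, Trpv2 and Trpa1 were higher in MACS-sorted samples, Trpm2 was lower, and 4 did not pass. A gene passed at an adjusted p below 0.05 from limma, a linear model with a shared estimate of the spread, fitted on log2(FPKM + 0.1). Over all 12038 genes tested, 18.8% were higher and 27.7% lower, so 3 and 1 of 8 members stand beside those shares. The study listed these 3 genes as enriched from the same samples, so their direction here is not independent evidence. The median difference was -0.15 over the 8 members and -0.04 over all genes tested.

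Trpa1 showed the largest rise, from 15.2 ± 0.909 FPKM (SD, n = 4) in unsorted to 26.8 ± 5.12 FPKM in MACS-sorted samples, a ratio of 1.77. Its difference on the log2(FPKM + 0.1) scale was 0.80 (SE 0.14, limma adjusted p = 1.0e-03). Trpv2 rose from 23.0 ± 0.472 to 34.5 ± 4.68 FPKM, a ratio of 1.50 and a log2 difference of 0.57 (SE 0.10, limma adjusted p = 9.6e-04). For both genes the groups did not overlap, and without MACS-sorted replicates 3 and 4 the differences were 0.99 and 0.69 (limma adjusted p = 4.8e-05 and 1.6e-04). Trpv1 rose from 36.1 ± 4.61 to 51.2 ± 12.5 FPKM, a ratio of 1.42 and a log2 difference of 0.48 (SE 0.17, limma adjusted p = 0.0476). Here the groups overlapped, and an exact two-sided permutation test of the same values gave p = 0.114, where 4 against 4 samples allow no p below 0.0286. Without MACS-sorted replicate 4 the log2 difference of Trpv1 was 0.65 (limma adjusted p = 0.00151), and without MACS-sorted replicates 3 and 4 it was 0.70 (adjusted p = 0.00360). The call was lost on leaving out any one of the other samples except unsorted replicate 4, with adjusted p between 0.0921 and 0.119, and when samples were rescaled to equal pan-neuronal markers, at 0.35 (adjusted p = 0.0695). It was also lost with unsorted replicates 1 and 2 averaged, at 0.44 (adjusted p = 0.106), without the filter on low FPKM (0.0597), without the trend of the spread with intensity (0.0703) and with the replicate number as a block (0.0866). The small-diameter nociceptor markers were higher in the same samples, and the part of cell composition in the rise of these members was not tested. All of Trpv1, Trpv2 and Trpa1 also met the 3 criteria of the study for an enriched gene (adjusted p below 0.05, a log2 ratio of group means above 0.5 and a mean above 5 FPKM), which 8.15% of all genes met in the higher direction.

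Trpm2 fell from 4.90 ± 0.774 to 3.35 ± 0.849 FPKM, a log2 difference of -0.55 (SE 0.18, limma adjusted p = 0.0310). Its groups overlapped, and the exact two-sided permutation p was 0.0857 (n = 4 per group). Trpm2 no longer passed without MACS-sorted replicates 3 and 4, at -0.44 (adjusted p = 0.143). It also lost its call without unsorted replicate 3 or 4 or MACS-sorted replicate 2 or 3, with adjusted p between 0.0713 and 0.0890, and with the replicate number as a block (0.0542). Trpm8 averaged 8.43 ± 0.854 FPKM in unsorted and 5.75 ± 2.57 FPKM in MACS-sorted samples, a log2 difference of -0.66 that did not pass (SE 0.29, limma adjusted p = 0.0898). Its value rested on the MACS-sorted replicates with most haemoglobin: without replicates 3 and 4 the difference was -0.08 (adjusted p = 0.551), and without replicate 1 or replicate 2 it passed at -0.84 (adjusted p = 0.0437) or -0.86 (adjusted p = 0.0304). A list of red blood cell markers was also removed from all samples and the rest rescaled. The differences were then -0.51 for Trpm2 (limma adjusted p = 0.0465) and -0.62 for Trpm8 (limma adjusted p = 0.0827). That list did not hold all haemoglobin genes, so part of their FPKM stayed in. Trpm7, Trpc1 and Trpm3 did not pass, with log2 differences of -0.26, -0.19 and -0.10 and limma adjusted p of 0.101, 0.317 and 0.715. Trpm7 passed without MACS-sorted replicate 4, at -0.33 (adjusted p = 0.0308), and without MACS-sorted replicates 3 and 4, at -0.44 (adjusted p = 0.00872), while Trpm3 changed sign, to 0.13 and 0.10, and Trpc1 came to -0.05 and -0.03. Trpc5, which was below 1 FPKM, averaged 0.365 ± 0.0315 FPKM in unsorted and 0.580 ± 0.297 FPKM in MACS-sorted samples (exact two-sided permutation p = 0.0857, n = 4 per group), and its log2 difference of 0.46 was 0.20 without MACS-sorted replicate 3 and 0.31 without replicates 3 and 4.

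**Figure D2:**
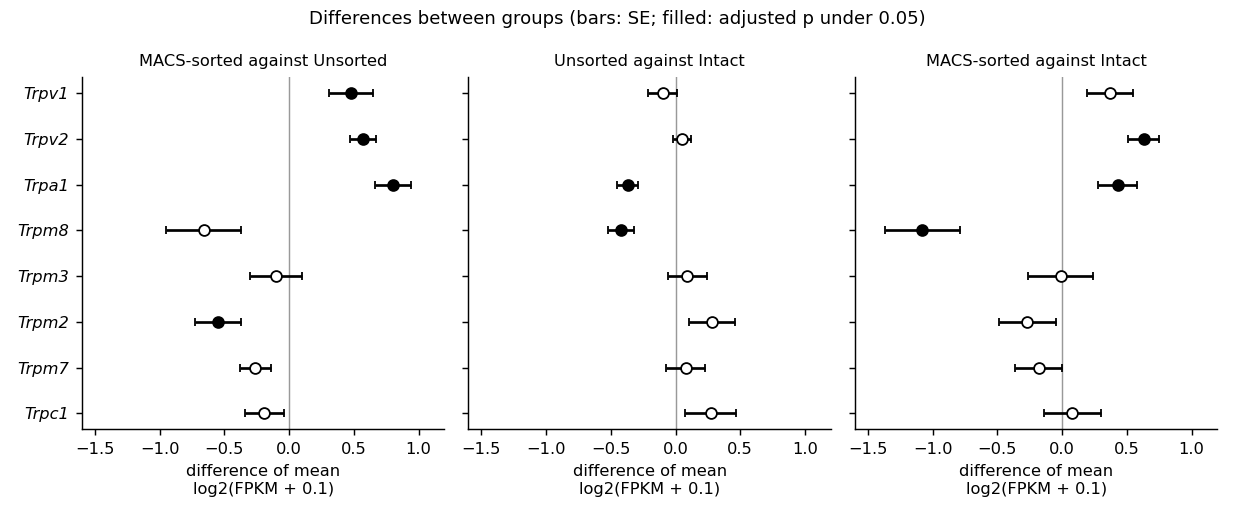
Differences in mean log2(FPKM + 0.1) between groups (x axis) for the 8 members at or above 1 FPKM (y axis) in the 3 comparisons (panels), with bars for the SE and filled symbols where the limma adjusted p was below 0.05. Trpa1 lies at 0.80 between MACS-sorted and unsorted samples and at -0.37 between unsorted and intact samples, and Trpm8 lies below 0 in all panels.

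The comparison of unsorted with intact samples asked which transcripts differed after acute dissociation. Marker genes of other cells differed too. In unsorted samples 7 of 7 fibroblast markers (median log2 difference -1.16) and 8 of 8 skeletal muscle markers (-5.11) were lower. All 6 endothelial markers (1.07) and 7 of 11 large-diameter neuron markers (0.62) were higher. Their part in the values of the members was not tested. Trpa1 and Trpm8 were lower after dissociation and the other 6 tested members did not pass. Of all 12392 genes tested, 7.79% were lower and 14.8% were higher, so the 2 of 8 members that were lower and the 0 of 8 that were higher stand beside those shares. At an unadjusted p below 0.05 the counts were again 2 lower and 0 higher by limma, and the median difference was 0.06 over the members and 0.01 over all genes.

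Trpa1 fell from 19.7 ± 1.50 FPKM (SD, n = 4) in intact to 15.2 ± 0.909 FPKM in unsorted samples, a log2 difference of -0.37 (SE 0.08, limma adjusted p = 0.0126). Trpm8 fell from 11.4 ± 1.22 to 8.43 ± 0.854 FPKM, a log2 difference of -0.42 (SE 0.10, limma adjusted p = 0.0219). For both genes every unsorted sample lay below every intact sample. Trpv1 did not pass, at 38.7 ± 4.72 and 36.1 ± 4.61 FPKM and a log2 difference of -0.10 (SE 0.11, limma adjusted p = 0.538). Trpv2 differed by 0.05 (SE 0.07, adjusted p = 0.633). With pan-neuronal scaling both passed as lower in unsorted samples, at -0.38 for Trpv1 (adjusted p = 0.0307) and -0.22 for Trpv2 (adjusted p = 0.0230). The call of Trpm8 was lost without intact replicate 3 or 4 or unsorted replicate 1 or 2, with adjusted p between 0.0545 and 0.0624, with unsorted replicates 1 and 2 averaged (0.0605) and with red blood cell genes removed (0.0655). Trpm2, Trpc1, Trpm3 and Trpm7 had log2 differences of 0.28, 0.27, 0.09 and 0.08 with limma adjusted p from 0.275 to 0.734, and all of these came down without intact replicate 1, the sample with muscle transcripts, to 0.12, 0.05, -0.08 and -0.08. Trpc5 was 0.283 ± 0.0614 FPKM in intact and 0.365 ± 0.0315 FPKM in unsorted samples (exact two-sided permutation p = 0.0571, n = 4 per group).

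MACS-sorted and intact samples differed in Trpv2, Trpa1 and Trpm8. This comparison shares all of its samples with those above and is no separate test of them. Of all 12234 genes tested, 14.1% were higher and 20.6% were lower, against 2 and 1 of 8 members. Trpv2 was higher, from 22.2 ± 1.74 to 34.5 ± 4.68 FPKM (log2 difference 0.63, SE 0.12, limma adjusted p = 0.00264). Trpm8 was 0.506 of its intact level, at 5.75 ± 2.57 against 11.4 ± 1.22 FPKM (log2 difference -1.08, SE 0.29, limma adjusted p = 0.0183). No MACS-sorted value of Trpm8 reached the intact range. Without MACS-sorted replicates 3 and 4 the difference of Trpm8 was -0.51 (adjusted p = 0.0271), and without MACS-sorted replicate 3 alone it was -0.97 and did not pass (adjusted p = 0.0554). Trpa1 was higher at the edge of the threshold (log2 difference 0.43, SE 0.15, limma adjusted p = 0.0482). Its groups overlapped, and the exact two-sided permutation p was 0.0857 (n = 4 per group). Trpa1 kept its call on leaving out only MACS-sorted replicate 4, with adjusted p between 0.0646 and 0.123 without any other sample. With samples rescaled to equal pan-neuronal markers its difference was 0.03 (adjusted p = 0.848), that of Trpv2 was 0.23 (adjusted p = 0.0479) and that of Trpv1 was -0.03. Without MACS-sorted replicates 3 and 4 Trpa1 differed by 0.62 (adjusted p = 0.00549) and Trpv2 by 0.74 (adjusted p = 0.00320). Trpv1 did not pass (log2 difference 0.37, SE 0.18, limma adjusted p = 0.138), but did so at 0.55 without MACS-sorted replicate 4 (adjusted p = 0.00953) and at 0.60 without MACS-sorted replicates 3 and 4 (adjusted p = 0.0215). Every MACS-sorted value of Trpc5 exceeded every intact value (exact two-sided permutation p = 0.0286, n = 4 per group, the smallest possible), with a log2 difference of 0.76, or 0.49 without MACS-sorted replicate 3 and 0.60 without replicates 3 and 4.

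Ratios between members within a sample hardly depend on how samples were scaled to each other. The ratio of Trpm8 to Trpv1 showed no overlap between the groups and was lower after sorting. Its log2 value was -1.97, -2.22, -1.90 and -2.23 in unsorted and -3.06, -2.68, -3.61 and -3.51 in MACS-sorted replicates 1 to 4, a difference of -1.14. The ratio of Trpm3 to Trpv1 was lower too, without overlap, with a difference of -0.58, and that of Trpc5 to Trpc1 was higher without overlap, with a difference of 0.66. The last rested on MACS-sorted replicate 3, without which it was 0.42, and with a pseudocount of 1 FPKM it was 0.37 and the groups were no longer apart (exact permutation p = 0.0857, n = 4 per group). Without MACS-sorted replicates 3 and 4 the differences of the 3 ratios were -0.79, -0.61 and 0.34. Each of these 3 ratios had an exact two-sided permutation p of 0.0286 (n = 4 per group), the smallest possible, and a Benjamini-Hochberg adjusted value of 0.0571 over the 6 ratios computed, so 0 of 6 passed after adjustment. The ratio of Trpa1 to Trpv1 differed by 0.32 (exact permutation p = 0.0571, adjusted 0.0857, n = 4 per group). Those of Trpv2 to Trpv1 and Trpm2 to Trpm7 differed by 0.10 and -0.29 (exact permutation p = 0.457 and 0.286, n = 4 per group), and by -0.01 and -0.00 without MACS-sorted replicates 3 and 4.

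**Figure D3:**
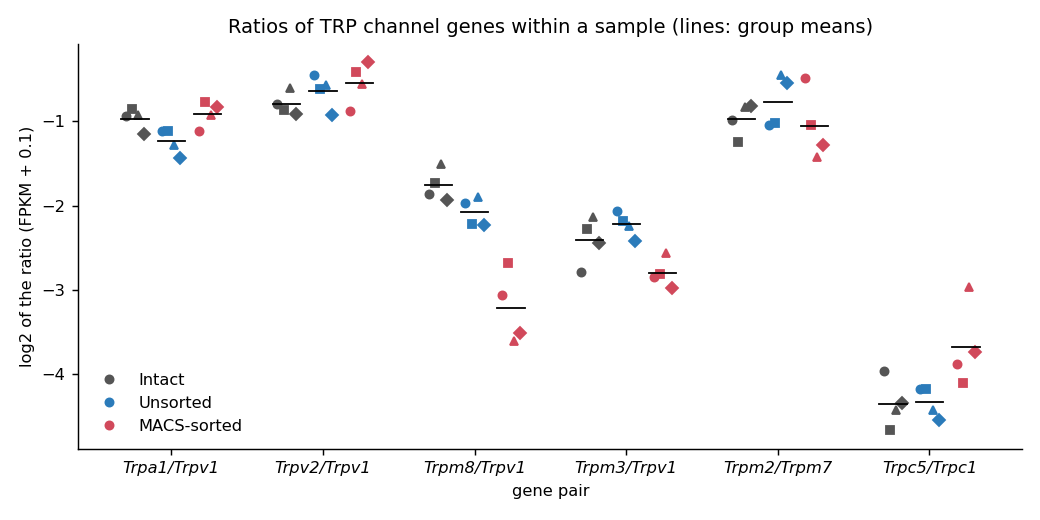
Log2 of the ratio of 2 TRP channel genes in the same sample (y axis, computed on FPKM + 0.1) for 6 gene pairs (x axis), with 1 symbol per sample, shaped by replicate number and coloured by group, and a line at each group mean. The MACS-sorted values of Trpm8/Trpv1, from -3.61 to -2.68, lie below the unsorted values, from -2.23 to -1.90.

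Of 18 other TRP genes, 5 reached a mean of 1 FPKM and entered the test. All 5 passed between MACS-sorted and unsorted samples, 4 of them higher and 1 lower, beside 18.8% and 27.7% of all genes tested. Their median difference was 0.34. Trpc6, a channel opened by diacylglycerol, had a log2 difference of 1.05 (SE 0.11, limma adjusted p = 6.7e-05), with 5.54 to 6.31 FPKM in unsorted and 10.3 to 14.8 FPKM in MACS-sorted samples. It was lower in unsorted than in intact samples (log2 difference -0.36, SE 0.08, limma adjusted p = 0.0149), the only one of the 5 to pass in that comparison. Trpc4 rose from 1.61 ± 0.137 to 2.46 ± 0.460 FPKM (limma adjusted p = 0.0196).

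The smaller rises were those of Mcoln1, a lysosomal channel, from 24.1 ± 1.12 to 29.1 ± 3.32 FPKM (limma adjusted p = 0.0317), and of Trpm4, a calcium-activated channel, from 5.01 ± 0.326 to 6.36 ± 0.595 FPKM (limma adjusted p = 0.0197). The calls of these genes and Trpc4 were close to the threshold. That of Trpc4 was lost without unsorted replicate 3 or 4 and with pan-neuronal scaling, with adjusted p of at most 0.0535. That of Trpm4 was lost without unsorted replicate 1 or 2, with both averaged, without MACS-sorted replicates 3 and 4 (0.0877) and with pan-neuronal scaling (0.232). That of Mcoln1 was lost without any unsorted replicate or MACS-sorted replicate 2 or 3, with unsorted replicates 1 and 2 averaged, without the trend and with pan-neuronal scaling, with adjusted p of at most 0.136. Those of Trpc6 and Pkd2 passed in every refit that tested them (20 or 21 each). Trpm4 overlaps a ribosomal protein pseudogene, Rpl14-ps1, listed at 152 to 295 FPKM, and its value is uncertain for that reason. Pkd2, which encodes the polycystin of primary cilia, fell from 5.05 ± 0.672 FPKM in unsorted to 1.65 ± 0.830 FPKM in MACS-sorted samples, a log2 difference of -1.67 (SE 0.31, limma adjusted p = 0.00161). All 8 satellite glia markers and all 11 large-diameter neuron markers were lower as well. So were 6 of 7 Schwann cell and 6 of 7 fibroblast markers. None of the 6 endothelial markers passed, and 9 of 11 small-diameter nociceptor markers were higher. The part of these cells in the value of Pkd2 was not tested. The other 13 genes, Trpc2, Trpc7, Trpm1, Trpm5, Trpm6, Trpv3, Trpv4, Trpv5, Trpv6, Mcoln2, Mcoln3, Pkd2l1 and Pkd2l2, did not exceed 1.26 FPKM in any sample. Of these, Trpv6 and Pkd2l2 were listed at 0 in all 12 samples. Trpv4, the osmosensitive channel, was listed at 0.371 to 0.505 FPKM in unsorted and 0.143 to 1.26 FPKM in MACS-sorted samples.

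**Figure D4:**
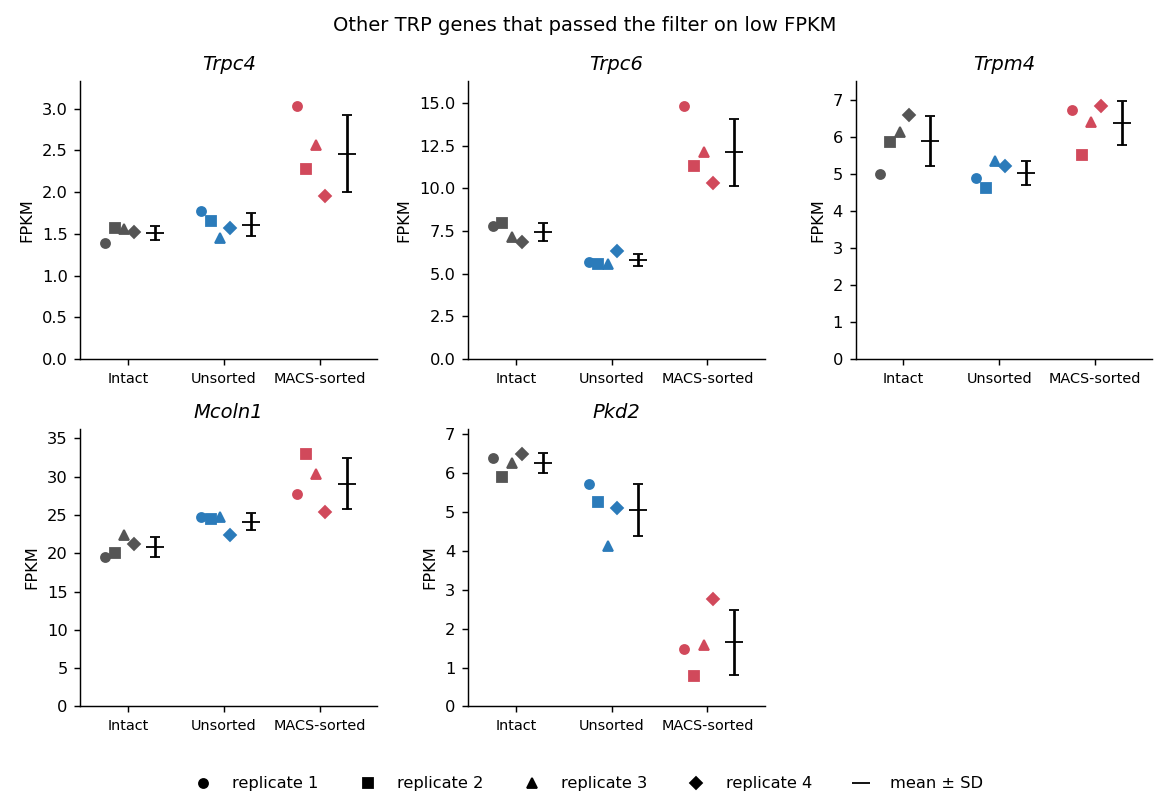
FPKM (y axis, linear, from 0) of the 5 other TRP genes that entered the test, by group (x axis: Intact, Unsorted, MACS-sorted), with 1 symbol per sample, shaped by replicate number, and the mean ± SD (n = 4) as a bar. Trpc6 lies at 10.3 to 14.8 FPKM in MACS-sorted samples and at 5.54 to 6.31 FPKM in unsorted samples, and Pkd2 is lowest in MACS-sorted samples.

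Other genes encode proteins that gate, phosphorylate or transport TRP channels. Of 33 such genes, 31 entered the test of MACS-sorted against unsorted samples: 7 rose, 7 fell and 17 did not pass, beside 18.8% higher and 27.7% lower of all genes tested. Their median difference was -0.03, against -0.04 over all genes. The largest rises were those of Prkcd (protein kinase C delta), Plcb3 (a phospholipase C activated by Gq-coupled receptors) and Syt9 (a synaptotagmin of vesicle release). Prkcd was 93.8 to 102 FPKM in unsorted and 161 to 247 FPKM in MACS-sorted samples (log2 difference 1.15, SE 0.13, limma adjusted p = 7.5e-05). Plcb3 rose from 92.0 to 185 FPKM (log2 difference 0.99, limma adjusted p = 2.6e-04) and Syt9 from 37.1 to 73.3 FPKM (log2 difference 0.96, limma adjusted p = 1.8e-04). The largest falls were found in the same enzyme families. Prkcb, another protein kinase C, fell from 14.3 to 3.39 FPKM (log2 difference -2.11, limma adjusted p = 3.7e-05), Plcb1 from 7.01 to 2.92 FPKM (log2 difference -1.27, limma adjusted p = 2.1e-04) and Plcb4 from 10.5 to 4.73 FPKM (log2 difference -1.15, limma adjusted p = 1.1e-04). Groups did not overlap for any of these 6 genes. Against intact samples, 11 of 31 were higher in unsorted samples and 0 were lower by limma (13 and 0 at an unadjusted p below 0.05), beside 14.8% and 7.79% of all genes tested. In the same comparison the large-diameter neuron list had 7 of 11 genes higher (median log2 difference 0.62) and the pan-neuronal list 4 of 8 (median 0.31), and their part in these counts was not tested.

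**Figure D5:**
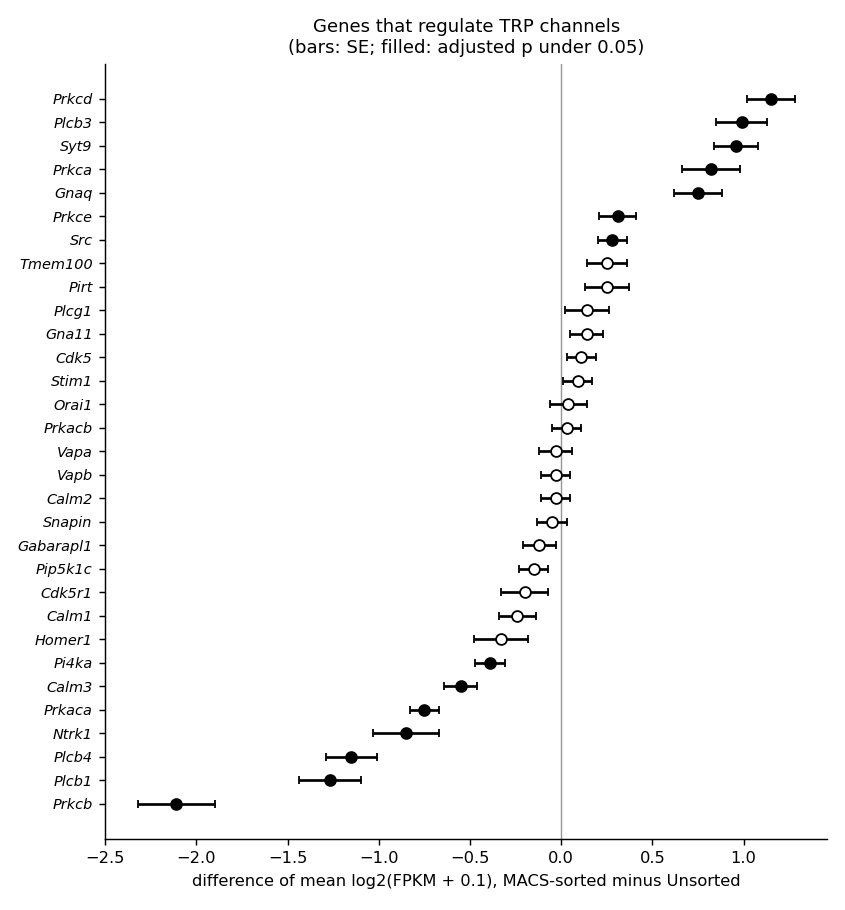
Differences in mean log2(FPKM + 0.1), MACS-sorted minus unsorted (x axis), for the 31 tested regulators of TRP channels (y axis, ordered by value), with bars for the SE and filled symbols where the limma adjusted p was below 0.05. The 7 genes that rose reach 1.15 (Prkcd) and the 7 that fell reach -2.11 (Prkcb).

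For 5 members the genes with the most similar pattern over the 12 samples were sought, as the smallest root mean square difference of log2(FPKM + 0.1) after each gene was centred on its own mean. For Trpv1 these were Sertm1, Zmat4 and Arhgef28, at 0.117, 0.127 and 0.129, where the median over 12282 genes was 0.402. Those of Trpa1 were Prkar2b, a regulatory subunit of protein kinase A, Ap1ar and Ica1l, at 0.117, 0.118 and 0.128 (median 0.450). The genes closest to Trpm8 were less close, with Gpr26, Syne4 and Ndufs3 at 0.215, 0.274 and 0.275 (median 0.638). Trpm2 was followed most closely by Shroom3, Adat1 and Sptbn4, at 0.154, 0.158 and 0.169 (median 0.452), and Trpc5 by Cdk18, Pvrl1 and Cntnap4, at 0.191, 0.207 and 0.214 (median 0.517). These distances describe samples that share libraries and scaling.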

How the data were processed

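The series holds 12 RNA-seq samples of mouse DRG. Per the labels and the study's methods, the authors aligned reads to mm10 with TopHat2, merged lanes with SAMtools and estimated expression with Cufflinks 2.1.1; the deposited table gives FPKM of 24490 genes in every sample. Depth is not part of the deposited file and was estimated from the steps between the lowest FPKM values, so no counting intervals are given. Replicates were compared on fragments estimated from FPKM, depth and annotated length, over genes with a single GENCODE transcript. FPKM is relative to each sample's total, so abundant transcripts of other cells lower all other values. Groups were taken from the labels, and errors are SD over 4 samples. The design text calls the samples of a group biological replicates.

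Groups were compared with limma 3.58.1 (R 4.3.3) on log2(FPKM + 0.1), two-sided, allowing the prior variance to follow intensity. Benjamini-Hochberg adjustment covered all genes averaging 1 FPKM or more in the 8 samples compared. The study used CuffDiff, which needs reads. Fold changes on this scale understate changes of low genes. Exact permutation tests (scipy 1.17.1) served Trpc5, which was under the filter, and the ratios. As an addition they served the called differences whose groups overlapped. These were Trpv1 and Trpm2 against unsorted samples and Trpa1 in MACS-sorted against intact samples. The fit was also run on simulated data, with both groups drawn from the means and spread of the unsorted samples. MACS-sorted samples spread more for most members, so that run does not check the calls reported here. Promoters are from RefSeq (GRCm38.p6).

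The members and lists were chosen with earlier results of these data known. The genes named are the members, the other TRP genes, the 3 regulators with the largest rise and the 3 with the largest fall among those that passed, the 3 genes nearest in pattern to each of 5 members, and marker genes; 1 gene of these lists is not reported here. Alternatives were other pseudocounts and filters, 1 fit of all 12 samples, the replicate number as a block, a constant prior variance, 4 rescalings (median-ratio, quantile, red blood cell genes removed, pan-neuronal markers), and leaving out samples. Those that average unsorted replicates 1 and 2, which were unusually alike, or leave out MACS-sorted replicates 3 and 4 were chosen after seeing the data. The red blood cell genes removed were a list of markers that did not hold all haemoglobin genes.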

Additional observations from a re-analysis of the deposited data

Results flagged for a closer look

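Among 30 sets of 4 values (9 members and their sum in 3 groups), 3 held a sample whose gap to the others, divided by the whole range, exceeded Dixon's critical value, where chance gives about 1 in 20. Trpm3 was 4.99 FPKM in intact replicate 1 against 7.90 to 8.20 in the other intact samples, and Trpc1 was 4.78 FPKM in the same sample against 8.87 to 8.99. This sample also held the most muscle transcripts (2975 FPKM over 8 markers), and their part in these values was not tested. Trpc1 was 6.01 FPKM in MACS-sorted replicate 4 against 8.67 to 9.21 in the others, in the sample with the highest haemoglobin share (7.13%), whose part was not tested either.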

How the results depend on the processing

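Over 24 log2 differences of single members, 485 refits gave 415 with direction and call unchanged. Among the called differences none changed direction. The counts of members moved more. Of members lower in MACS-sorted than unsorted samples (1, Trpm2), 0 were left with a filter of 5 FPKM, which leaves Trpm2 untested, and 0 with median-ratio or quantile scaling, and 2 passed with pan-neuronal scaling; leaving out samples gave 0 to 2. Without MACS-sorted replicates 3 and 4 the 1 lower member was Trpm7. Of members lower in unsorted than intact samples (2), 0 passed in 1 fit of all samples, 1 with red blood cell genes removed, 1 with unsorted replicates 1 and 2 averaged and 4 with pan-neuronal scaling (Trpv1 and Trpv2 in addition); leaving out samples gave 1 to 2. Of members higher in MACS-sorted than intact samples (2), 1 passed without the filter, without the trend or with pan-neuronal scaling, and 1 to 3 on leaving out samples. Of those lower there (1), 3 passed with pan-neuronal scaling and 0 to 1 on leaving out samples. With pan-neuronal scaling 1 member met the 3 criteria, 1 other TRP gene was higher and 13 regulators were lower. Other TRP genes higher numbered 2 with unsorted replicates 1 and 2 averaged and 2 to 4 on leaving out samples, and those lower numbered 0 at 5 FPKM. Beyond the filter and fewer samples, the cause was not tested.

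Differences that did not pass changed sign as follows. With pan-neuronal scaling they became -0.03 (Trpv1, MACS-sorted against intact), -0.22 (Trpv2), -0.18 (Trpm3) and -0.19 (Trpm7, all 3 unsorted against intact) and -0.32 (Trpc1, MACS-sorted against intact). With quantile scaling they became -0.01 (Trpv2, unsorted against intact), 0.05 (Trpm3, MACS-sorted against unsorted), 0.14 (Trpm3) and 0.11 (Trpm2, both MACS-sorted against intact). Trpm3 in MACS-sorted against intact samples was 0.04 with median-ratio scaling, 0.00 with red blood cell genes removed and 0.18 without MACS-sorted replicates 3 and 4, which gave 0.10 against unsorted samples. Leaving out samples moved Trpm3 from -0.21 to 0.13, -0.08 to 0.15 and -0.18 to 0.22 in the 3 comparisons, Trpm7 from -0.08 to 0.18 in unsorted against intact and Trpc1 from -0.14 to 0.22 in MACS-sorted against intact samples.

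Scaling also moved all genes. The median difference between MACS-sorted and unsorted samples, -0.04 as reported, was 0.10 with quantile and -0.17 with pan-neuronal scaling; the pan-neuronal value was -0.26 for unsorted against intact samples, and for MACS-sorted against intact samples it was -0.44, where quantile scaling gave 0.13. Genes called higher and lower, 2261 and 3331 for MACS-sorted against unsorted, became 4039 and 2767 with quantile and 1488 and 4294 with pan-neuronal scaling. For unsorted against intact samples 1828 and 965 became 850 and 1093 with red blood cell genes removed and 476 and 4176 with pan-neuronal scaling. For MACS-sorted against intact samples 1728 and 2524 became 3102 and 2044 with quantile and 499 and 6115 with pan-neuronal scaling.

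Samples with the same replicate number did not deviate together over all genes (r from -0.14 to 0.07). With so few samples per group, each with its own contaminants, this cannot tell whether the numbers mark a shared preparation. With the replicate number as a block, Trpv1 and Trpm2 lost their calls between MACS-sorted and unsorted samples (2 members higher and 0 lower), and Trpa1 did so against intact samples (1 member higher, adjusted p = 0.0677). Depth limits Trpc5 most, at about 14 to 70 fragments per sample.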
